A study of Mus musculus with 6 samples.

Results

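The genes described here encode the receptors, ligands, receptor substrates and binding proteins of the insulin and insulin-like growth factor (IGF) system of the mouse heart. They were taken by symbol, and all 9 were found among the 17447 gene rows of the count table. They are the receptors Insr and Igf1r, the receptor substrates Irs1 and Irs2, the ligands Igf1 and Igf2, and the binding proteins Igfbp3, Igfbp4 and Igfbp5. The study sequenced total RNA from the hearts of wild type mice. It holds 3 hearts of mice given chronic kidney disease (CKD) by subtotal nephrectomy, surgery that takes out most kidney tissue, and 3 hearts of sham-operated mice, which had anaesthesia, opening of the abdomen and exposure of the kidneys with no tissue removed. All carry 1 batch label, and strain, sex, age and time after surgery are not stated in the labels. Levels are given for the sham hearts alone, for the reason stated next. The labels say of the sham samples only that they are numbered 1 to 3, so the SD measures the spread between these samples.

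Whether gene symbols and counts belong together was checked in each column. Across all 17447 rows, Spearman's rho was 0.984 to 0.987 between the 3 pairs of CKD columns and 0.982 to 0.985 between the 3 pairs of sham columns. Between CKD and sham columns it was -0.0586 to -0.0528 over 9 pairs. These values run across genes, and genes are no independent replicates. The 15 rows of ventricular cardiomyocyte markers, among them the cardiac myosin Myh6 and the troponin Tnnt2, had a median percentile of 26.4 to 29.1 in the CKD columns and 99.9 in each sham column. All 15 held at least 100 counts in every sham column, against 4 or 5 of 15 in a CKD column. The row labelled Igf1r, for example, held 2, 1 and 3 counts in the CKD columns and 315, 283 and 423 in the sham columns, and the row labelled Igf1 held 2316, 2557 and 1947 in CKD and 261, 143 and 314 in sham. Because the CKD labels did not correspond to their values, such pairs are not read as gene changes, and no insulin or IGF gene was compared between CKD and sham hearts. The sham columns held 10480788, 10474487 and 12669724 counts. All 9 genes had at least 100 counts in every sham heart, from 138 for Irs2 in sham 3 to 3704 for Igfbp5 in sham 1, so all were well above the limit of detection.

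Insulin and the IGFs act through related receptor tyrosine kinases at the cell surface. The activated receptors phosphorylate insulin receptor substrates, which recruit PI3-kinase and start AKT signalling, and in heart muscle this pathway is known for glucose uptake and for growth of the myocyte. IGFs in tissue fluid are mostly held by IGF binding proteins, which set how much free ligand reaches the receptor.

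The insulin receptor was by far the more abundant receptor, and both receptors varied by less than 20% between the sham hearts. A level is given as CPM, the count divided by the total of its column and scaled by 1000000. Insr stood at 239.7, 231.6 and 192.3 CPM in sham 1, 2 and 3, a mean of 221 ± 25.4 CPM (SD, n = 3). It was lowest in sham 3, and the highest heart was 1.25 times the lowest. Igf1r, which binds both IGFs, stood at 30.1, 27.0 and 33.4 CPM, a mean of 30.2 ± 3.19 CPM (SD, n = 3), with sham 2 lowest. Longer transcripts yield more reads, so the genes are compared with each other only as CPM per kilobase of the longest annotated transcript. On that scale Insr averaged 23.6 ± 2.71 and Igf1r 2.64 ± 0.279 CPM per kilobase (SD, n = 3). The ratio of Igf1r to Insr per kilobase was 0.103, 0.0957 and 0.142 in sham 1, 2 and 3, so Igf1r was below Insr in 3 of 3 hearts.

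**Figure D1:**
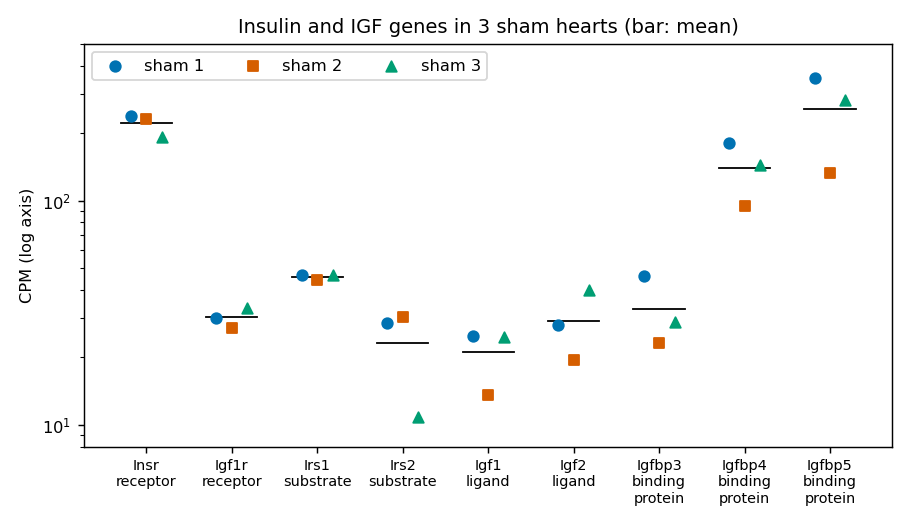
Level of each of the 9 genes in CPM (log axis) in the 3 sham hearts, with 1 marker per heart and a bar at the mean, grouped by role. Insr, Igf1r and Irs1 show close points, sham 2 is the low point of both ligands and all 3 binding proteins, and sham 3 is the low point of Irs2.

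The receptor substrates differed in their spread between hearts. Irs1, which links the receptors to PI3-kinase, stood at 46.5, 44.3 and 46.6 CPM, a mean of 45.8 ± 1.31 CPM (SD, n = 3). Its coefficient of variation of 2.85% lay below the 4.41% that counting error alone would give at its depth. Irs2, a second substrate known as a gene that insulin represses in liver, stood at 28.3, 30.3 and 10.9 CPM, a mean of 23.2 ± 10.7 CPM (SD, n = 3). It was similar in sham 1 and 2 and lower in sham 3, where 138 counts were read against 297 in sham 1 and 317 in sham 2. Without sham 3 its mean was 29.3 CPM. Per kilobase, Irs1 averaged 5.01 ± 0.143 and Irs2 3.66 ± 1.69 CPM (SD, n = 3). The ratio of Irs1 to Irs2 per kilobase was 1.13, 1.01 and 2.96 in sham 1, 2 and 3, and the mean log2 ratio of 0.59 was smaller than its SD of 0.851. Without sham 3 it was 0.099, so on the scale of the longest transcript the distance between the substrates rested on that heart. Per kilobase of coding sequence the ratio was 1.76 in sham 1 and 1.57 in sham 2, and higher in sham 3. With that length the distance was thus present in sham 1 and 2 as well.

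The promoters of both substrate genes are shown because these genes share a receptor input and a pair of motifs yet differed in spread. The sequences are from RefSeq on build GRCm38.p6 and run from 250 bases before to 50 bases after an annotated start. Capitals mark the E-box CACGTG and the motif TGTTTTG, which resembles the insulin response sequence bound by FOXO factors. Motifs were searched on both strands and were chosen after the sequences had been read.
Irs1: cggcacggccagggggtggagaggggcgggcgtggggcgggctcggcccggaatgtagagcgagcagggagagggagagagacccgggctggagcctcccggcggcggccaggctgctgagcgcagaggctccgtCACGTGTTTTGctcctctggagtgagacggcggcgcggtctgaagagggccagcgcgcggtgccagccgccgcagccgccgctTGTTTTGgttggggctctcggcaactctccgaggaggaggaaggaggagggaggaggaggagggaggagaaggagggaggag
Irs2: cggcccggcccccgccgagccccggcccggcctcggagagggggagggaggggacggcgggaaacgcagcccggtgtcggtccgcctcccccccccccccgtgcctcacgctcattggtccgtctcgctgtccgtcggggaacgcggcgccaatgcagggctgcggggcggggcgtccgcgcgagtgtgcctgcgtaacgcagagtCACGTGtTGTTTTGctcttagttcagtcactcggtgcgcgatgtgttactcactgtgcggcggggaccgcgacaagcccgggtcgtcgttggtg
The Irs1 window lies at chr1:82291390-82291689 on the minus strand and the Irs2 window at chr8:11008880-11009179 on the minus strand. In Irs1 the E-box starts at base 136 of the window and TGTTTTG at base 140, so the motifs share 2 bases, and TGTTTTG occurs again at base 219. In Irs2 the E-box starts at base 207 and TGTTTTG at base 214, with 1 base between them. Of 32851 RefSeq promoter windows of this length, 7.15% hold CACGTG, 6.28% hold TGTTTTG and 0.408% hold both. These matches describe the letters only.

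Both ligands were lowest in sham 2. Among the 16856 genes with a length, Igf1 stood at percentile 48.8 and Igf2 at 62.3 per kilobase of the longest transcript. Igf1, the main growth factor of the pair after birth, stood at 24.9, 13.7 and 24.8 CPM in sham 1, 2 and 3, a mean of 21.1 ± 6.46 CPM (SD, n = 3). Sham 1 and 3 were alike and the highest heart was 1.82 times the lowest. Igf2, an imprinted growth factor best known from fetal life, stood at 27.9, 19.6 and 40.2 CPM, a mean of 29.2 ± 10.4 CPM (SD, n = 3), with sham 3 the highest. Per kilobase Igf1 averaged 2.99 ± 0.916 and Igf2 6.18 ± 2.20 CPM (SD, n = 3). The ratio of Igf1 to Igf2 per kilobase was 0.599, 0.467 and 0.413, so Igf1 was below Igf2 in 3 of 3 hearts. Per kilobase of coding sequence the ratio was 1.03, 0.807 and 0.714, so Igf1 was then below Igf2 in sham 2 and 3 and not in sham 1. The genes overlap others in current annotation, Igf1os on the opposite strand of Igf1, and Igf2os (opposite strand), Mir483 and Gm49394 (same strand) at Igf2. In all 8 genes overlap 5 of the 9 (Insr, Irs1, Irs2, Igf1 and Igf2), and none has a row of its own in the table. As the strand setting of the counting is not known here, their reads cannot be told apart from those of the named gene.

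Igfbp5 and Igfbp4 had the highest mean of the 9 genes per kilobase, and all 3 binding proteins were lowest in sham 2. In that heart Insr, at 24.8 CPM per kilobase, was above Igfbp4 at 24.6 and Igfbp5 at 22.2. Igfbp5, a binding protein that attaches to extracellular matrix, stood at 353.4, 133.3 and 279.9 CPM, a mean of 256 ± 112 CPM (SD, n = 3), and the highest heart was 2.65 times the lowest. Igfbp4, which holds IGF until it is cleaved by the protease Pappa, stood at 179.9, 94.3 and 144.7 CPM, a mean of 140 ± 43.0 CPM (SD, n = 3). Igfbp3, the main carrier of IGFs in blood, stood at 46.4, 23.2 and 28.7 CPM, a mean of 32.8 ± 12.1 CPM (SD, n = 3). The order of the hearts was the same for all 3, with sham 1 highest, sham 3 between and sham 2 lowest. Summed, the 3 binding proteins took 580, 251 and 453 CPM in sham 1, 2 and 3, a range of 2.31 times, while the 2 receptors took 269.7, 258.6 and 225.7 CPM, a range of 1.2 times. Per kilobase of the longest transcript, each binding protein exceeded Igf1 in every heart. The ratio to Igf1 was 16.7, 11.5 and 13.3 for Igfbp5, 13.3, 12.7 and 10.7 for Igfbp4, and 5.42, 4.95 and 3.38 for Igfbp3. Per kilobase of coding sequence Igfbp5 and Igfbp4 still exceeded Igf1 in 3 of 3 hearts, while the ratio of Igfbp3 to Igf1 was 1.05, 0.960 and 0.655, above 1 in sham 1 alone. These ratios moved less between hearts than the levels did, with both genes of a ratio low in sham 2.

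**Figure D2:**
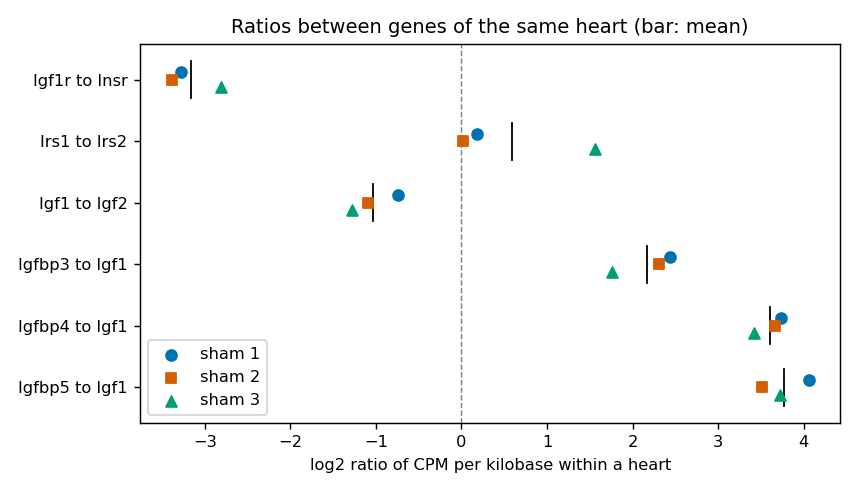
Log2 ratio of CPM per kilobase between 2 genes of the same heart, with 1 marker per sham heart and a bar at the mean. Igf1r lies below Insr and the 3 binding proteins lie above Igf1 in every heart, and the ratio of Irs1 to Irs2 is set apart in sham 3.

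Ranked by CPM, the order was Igfbp5, Insr, Igfbp4, Irs1, Igfbp3, Igf1r, Igf2, Irs2 and Igf1. In this order only Insr and Igfbp4, and Igfbp4 and Irs1, had ranges that did not overlap, and an exact two-sided paired permutation test gave p = 0.25 to 1 for its 8 neighbouring pairs (0.667 to 1 after Benjamini-Hochberg adjustment). As CPM depends on transcript length, no gene is placed above another from it. Ranked by CPM per kilobase, it was Igfbp5 (42.5), Igfbp4 (36.5), Insr (23.6), Igfbp3 (13.5), Igf2 (6.18), Irs1 (5.01), Irs2 (3.66), Igf1 (2.99) and Igf1r (2.64). Among the 16856 genes with a length, Igfbp5 stood at percentile 92.3, Igfbp4 at 91.1 and Insr at 86.3 on this scale, and Igf1r at 46.8. On the scale per kilobase, 3 of the 8 neighbouring pairs had ranges that did not overlap and kept their order in 3 of 3 hearts. These were Insr above Igfbp3 (mean log2 ratio 0.86, SD 0.479), Igfbp3 above Igf2 (1.13, SD 0.613) and Irs1 above Irs2 (0.59, SD 0.851). Igfbp5 and Igfbp4, Igfbp4 and Insr, Igf2 and Irs1, Irs2 and Igf1, and Igf1 and Igf1r overlapped and changed places in 1 of 3 hearts. The mean log2 ratio was smaller than its SD for 4 of these 5 pairs, and for Irs1 and Irs2. On this scale these pairs did not differ beyond their spread, while with coding length Irs1 to Irs2 had 1.22 (SD 0.851). For Igfbp4 and Insr the mean log2 ratio per kilobase of the longest transcript was 0.58, with an SD of 0.51. An exact two-sided paired permutation test over 3 hearts cannot give a p below 0.25, and it gave p = 0.25 to 0.75 for the 8 pairs (0.667 to 0.75 after Benjamini-Hochberg adjustment). On both scales the pairs were neighbours in an order made from these same values, so the test cannot decide that order. With lengths of merged exons the order was the same, and with coding length the upper 3 places were the same while Igf2 and Igf1 rose to places 4 and 5 and Irs2 took place 9.

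**Figure D3:**
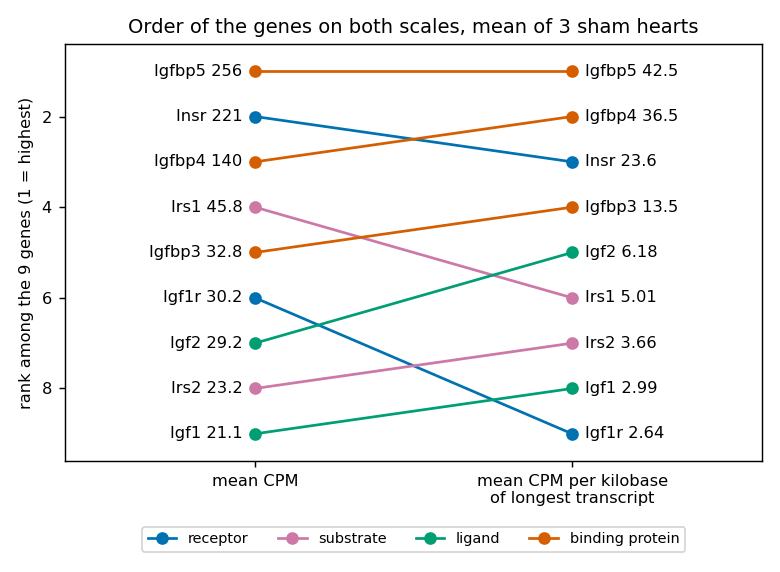
Rank of the 9 genes by mean CPM (left) and by mean CPM per kilobase of the longest transcript (right) over 3 sham hearts, with the mean beside each gene and lines coloured by role. Igfbp5 is highest on both scales, Igfbp4 passes Insr per kilobase, and Igf1r goes from place 6 by CPM to place 9 per kilobase.

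The coefficient of variation reached 20% in 6 of the 9 (Irs2, Igf1, Igf2, Igfbp3, Igfbp4 and Igfbp5, from 30.6% to 46.1%), against 14.2% of the 8864 genes with a mean of at least 10 CPM. The same 6 had a highest heart at least 1.5 times the lowest, against 13.1% of those genes. The median coefficient of variation was 30.8% over the 9 and 9.32% over the 8864. For these 6 genes counting error would give 1.86% to 6.46%. Insr, Igf1r and Irs1 lay at 11.5%, 10.6% and 2.85%, so both receptors were above the median of all genes and above their counting error of 2.02% and 5.42%. Without sham 2 the count was 3 of 9 (Irs2, Igf2 and Igfbp3), against 12.6% of genes, and it was 5 of 9 without sham 1 and 5 of 9 without sham 3.

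**Figure D4:**
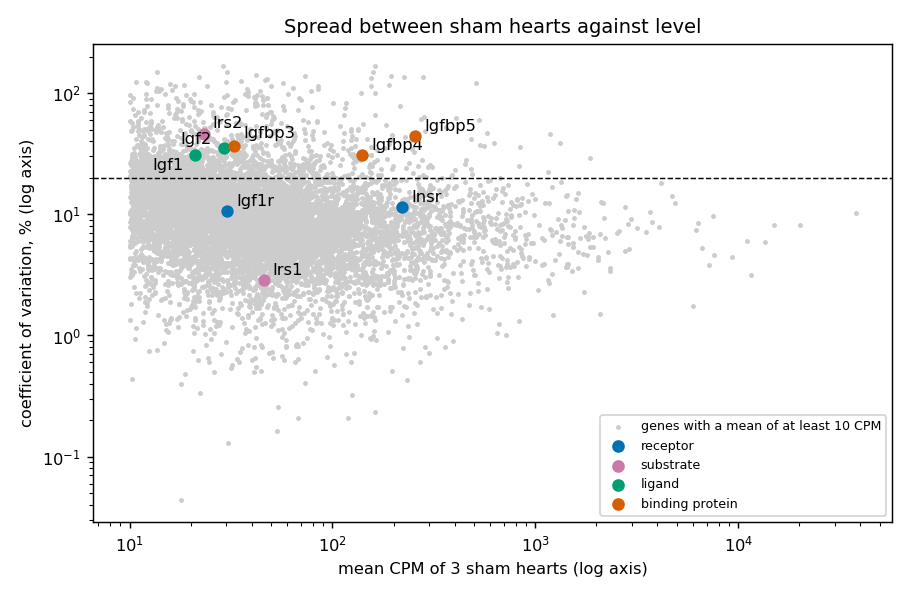
Coefficient of variation between the 3 sham hearts against mean CPM (both axes log) for the 8864 genes with a mean of at least 10 CPM, with the 9 insulin and IGF genes in colour by role and a dashed line at 20%. Ligands, binding proteins and Irs2 lie above the line, at 30.6% to 46.1%, and Insr, Igf1r and Irs1 below it.

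Sham 2 was the lowest heart for 7 of the 9 genes, sham 3 for 2 (Insr and Irs2) and sham 1 for 0. Of all 8864 genes, 45.6% were lowest in sham 2, 26.2% in sham 3 and 28.2% in sham 1. The highest heart was sham 1 for 5 genes, sham 3 for 3 and sham 2 for 1 (Irs2), against 36.9%, 39.6% and 23.5% of all genes. With TMM scaling among the sham columns, sham 2 was lowest for 6 of the 9 and for 28.8% of all genes, since Irs1 was then lowest in sham 3 (46.4 in sham 2, against 45.6 in sham 1 and 45.4 in sham 3). Both ligands and all 3 binding proteins kept sham 2 as their lowest heart under each of the 5 scalings tried, with Igfbp5 at 2.47 to 2.65 times between highest and lowest and Igf1 at 1.70 to 1.82 times. The hearts of the sham group were not tested against each other.

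By column totals, the summed cell type markers were lowest in sham 2 for every list but 2. The exceptions were the cardiomyocyte list and the pericyte and smooth muscle list. The ligands and binding proteins were lowest in sham 2 as well. On that scale 45.6% of all 8864 genes were lowest in sham 2, against 28.8% with TMM scaling. The marker sums were not computed with other scalings. Where sums lie close, as for the endothelial list, the lowest heart may depend on the scaling. The 15 fibroblast markers summed to 4589, 2594 and 5064 CPM in sham 1, 2 and 3, a range of 1.95 times. Of them 14 were lowest in sham 2 and 0 were at 0 counts. A coefficient of variation of 20% was reached by 12 of the 14 above 10 CPM, against 14.2% of all genes at that level. The fibroblast receptor Pdgfra gave 724, 498 and 910 counts and the matrix proteoglycan Dcn 9983, 6207 and 12007. The 14 macrophage and monocyte markers summed to 659, 529 and 852 CPM, with 11 lowest in sham 2 and 14 highest in sham 3. The 16 endothelial markers summed to 2725, 2631 and 2988 CPM, a range of 1.14 times, with 12 lowest in sham 2. The 12 pericyte and smooth muscle markers summed to 1722, 1764 and 2125 CPM. Of these 12 markers, 9 were lowest in sham 2, although their sum was lowest in sham 1. That sum weighs most its highest genes, Rgs5 (711, 726 and 718 CPM) and Abcc9 (436, 565 and 566 CPM), both lowest in sham 1. The 15 cardiomyocyte markers summed to 140009, 153414 and 137240 CPM, with 14 highest in sham 2. For comparison, the highest heart was sham 1 for 36.9%, sham 2 for 23.5% and sham 3 for 39.6% of all 8864 genes. The atrial list, which includes the natriuretic peptide Nppa, summed to 2798, 105 and 571 CPM, with all 9 highest in sham 1 and lowest in sham 2, and the mesothelial list to 27.6, 4.77 and 13.2 CPM. The 6 blood markers, mostly haemoglobin genes, summed to 111, 83.2 and 486 CPM, a range of 5.84 times, and were highest in sham 3, the heart with the highest Igf2 and the lowest Irs2. In bulk tissue, fewer cells of a type and less RNA per cell cannot be told apart, and the part of these cell types in the levels was not tested.

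Set against the summed fibroblast marker counts of the same heart, Igf1 was nearly level. It gave 0.543, 0.526 and 0.489 counts per 100 fibroblast marker counts in sham 1, 2 and 3, a range of 1.11 times, against 1.82 times in CPM. Igf2 gave 0.607, 0.754 and 0.793, a range of 1.31 times, and Igfbp4 gave 3.92, 3.64 and 2.86, a range of 1.37 times. Igfbp5 gave 7.70, 5.14 and 5.53 and was still lowest in sham 2, with a range of 1.5 times against 2.65 in CPM. Igfbp3 was lowest in sham 3 on this scale and had a range of 1.78 times, against 2.00 in CPM. Insr, Igf1r, Irs1 and Irs2 spread more on this scale than in CPM, Insr over 2.35 times. Against the endothelial markers, Igf1r had a range of 1.09 times and Irs1 of 1.09, while Igfbp5 kept 2.56. Against the macrophage and monocyte markers, Igf2 had a range of 1.27 times and Igf1 of 1.46. Igfbp4 had 1.61 there, Igfbp5 2.13 and Igfbp3 2.09. The narrower range of Igf2 was thus not particular to the fibroblast markers. This scale was chosen after the data had been seen.

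**Figure D5:**
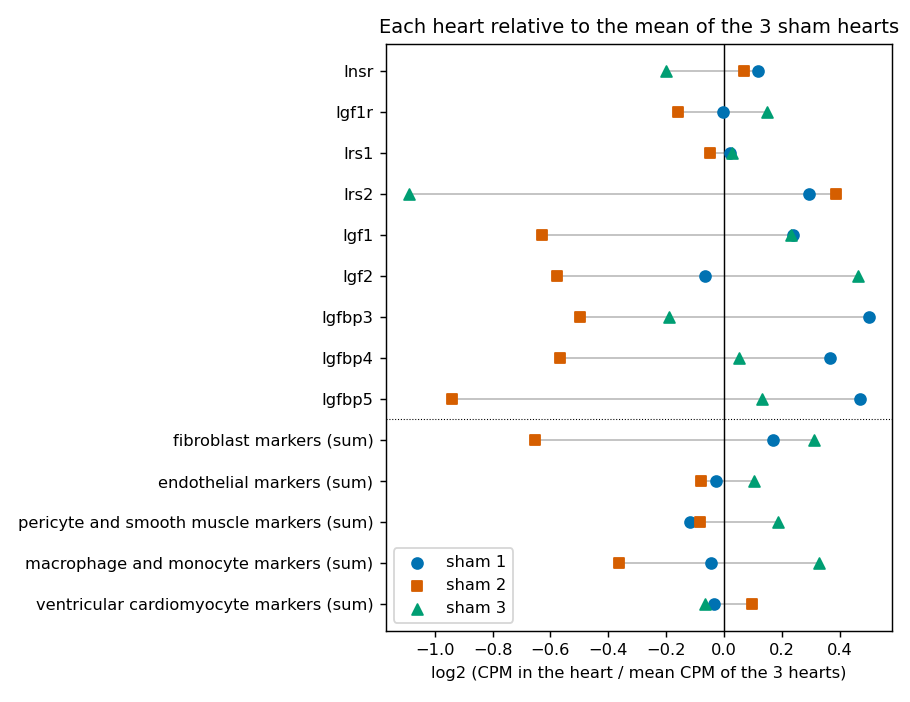
Log2 ratio of each sham heart to the mean CPM of the 3 hearts, for the 9 genes (above the dotted line) and for the summed CPM of 5 cell type marker lists (below it), with 1 marker per heart. Sham 2 is the low point of the ligands, the binding proteins and the fibroblast sum, and the high point of the cardiomyocyte sum, while Irs2 has its low point in sham 3.

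Genes with the most similar pattern were named by the distance between log2 CPM values centred over the 3 hearts, among genes with a mean of at least 10 CPM. With 3 hearts such likeness is a description. Nearest to Igf1 were Ppic (a cyclophilin, distance 0.0216), Cx3cl1 (a chemokine), Peg3 (an imprinted gene), Fbln1 (a matrix glycoprotein of the fibroblast list) and 9130401M01Rik, and 34 genes lay within 0.1. Fbln1 gave 1672, 893 and 1935 counts. Nearest to Igf2 were Nckap1l (a gene of blood cells, distance 0.0090), Shisa5, Zc3hav1 (an antiviral protein), Ptprj (a receptor phosphatase) and Ifi207 (an interferon-inducible gene). Nearest to Igfbp3 were Kctd12b, Tppp3, Sort1, Fasn (fatty acid synthase) and Gas1. Nearest to Igfbp4 were Rhoc, Selenom, Nxn, Trp53 and Smad1, and among the nearest to Igfbp5 were Prss23, Slc41a3, Myoc and Trp53i11. Among the nearest to Irs2, with 0 genes within 0.1, were the clock gene Per1 (distance 0.244), Ppp1r10, Dtx3l and Bdh1 (a ketone body enzyme). Per1 gave 664, 605 and 244 counts in sham 1, 2 and 3 and Bdh1 gave 3082, 3157 and 1880. Among the 9 genes themselves, Igf1r and Irs1 lay closest, at a distance of 0.165, followed by Igf1 and Igfbp4 at 0.230, Insr and Irs1 at 0.273 and Igfbp3 and Igfbp4 at 0.283.

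The promoters of Igf1 and Igfbp4 are shown because these were the closest pair among the 6 genes that varied by 20% or more. Capitals mark the TATA motif TATAAA, searched with the other motifs on both strands.
Igf1: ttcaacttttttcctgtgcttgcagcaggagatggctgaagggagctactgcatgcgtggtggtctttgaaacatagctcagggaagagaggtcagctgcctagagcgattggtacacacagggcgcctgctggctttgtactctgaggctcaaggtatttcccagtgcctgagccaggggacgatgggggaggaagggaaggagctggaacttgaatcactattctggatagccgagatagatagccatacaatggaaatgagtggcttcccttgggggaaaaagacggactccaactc
Igfbp4: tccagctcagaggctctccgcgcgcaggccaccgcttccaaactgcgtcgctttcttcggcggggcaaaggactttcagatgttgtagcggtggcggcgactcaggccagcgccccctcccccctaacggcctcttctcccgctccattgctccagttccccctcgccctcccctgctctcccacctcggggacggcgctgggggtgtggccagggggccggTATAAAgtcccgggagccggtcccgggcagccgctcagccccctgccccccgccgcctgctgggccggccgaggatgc
The Igf1 window lies at chr10:87860861-87861160 on the plus strand and the Igfbp4 window at chr11:99040994-99041293 on the plus strand. TATAAA starts at base 223 of the Igfbp4 window, and 13.6% of all windows hold it. The Igf1 window holds none of the motifs marked in capitals here, which says only that these letters are not in this window. RefSeq windows were matched for 8 of the 9 genes.

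Other genes of the pathway were read from lists totalling 84 genes, of which 80 were in the table. Of the 55 at 10 CPM or above, 8 varied by 20% or more, near the share of 14.2% over all 8864 genes at that level. Among receptors and ligands, Igf2r, the clearance receptor for Igf2, stood at 298 ± 2.13 CPM (SD, n = 3) and was nearly equal in the hearts. Lrp1, a lipoprotein receptor, gave 2670, 2226 and 4619 counts. The relaxin receptor Rxfp1 gave 42, 0 and 10 counts and Insl3 1, 9 and 9, and the insulin gene Ins2 and the insulin-receptor-related receptor Insrr gave 0, 0 and 1 and 0, 0 and 2 counts. Of the other binding proteins, Igfbp7 stood at 202, 126 and 227 CPM and Igfbp6 at 30.7, 12.3 and 21.5 CPM, both lowest in sham 2, while Igfbp2 gave 8, 0 and 1 counts. Per kilobase, Igfbp7 averaged 154 CPM and Igf2r 33.5, against 42.5 for Igfbp5, the highest of the 9. Ide, the insulin-degrading enzyme, stood at 121, 174 and 124 CPM and was highest in sham 2. The serine proteases Htra1 and Htra3 stood at 114 ± 5.97 and 105 ± 14.7 CPM (SD, n = 3), and Pappa gave 12, 3 and 11 counts.

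Substrates and adaptors were led in CPM by Grb2 at 110 ± 4.72, Crk at 108 ± 4.24, Gab1 at 97.0 ± 7.40 and Sh2b1 at 81.8 ± 5.75 (SD, n = 3). Per kilobase Grb2 averaged 40.7, Crk 25.1, Gab1 19.5 and Sh2b1 24.1 CPM, so the order by CPM was not kept. Of 9 adaptors with at least 10 CPM only Dok4 varied by 20% or more, with 268, 182 and 371 counts. Of all genes at that level 14.2% did. Irs3 gave 3, 1 and 10 counts, and Irs4 gave 0 in each heart, so a level of up to 0.286 CPM could have gone unseen in sham 2, by counting error alone. Downstream, all 27 genes of the PI3-kinase and AKT list had at least 10 CPM. Of these 3 varied by 20% or more, against 14.2% of all genes at that level. The glucose transporter Slc2a4, moved to the cell surface by insulin, stood at 583 ± 74.8 CPM, Akt1 at 310.5 ± 13.0, Akt2, the AKT form known for glucose uptake, at 224 ± 1.75, and Tsc2, an inhibitor of mTOR, at 183 ± 22.1 (SD, n = 3). The 3 that varied were Tbc1d1 with 498, 157 and 348 counts, a regulator of glucose transporter traffic, and the PI3-kinase regulatory subunits Pik3r1 with 1010, 1811 and 1802 and Pik3r3 with 146, 202 and 270. Pik3r1 was lowest in sham 1 and Tbc1d1 lowest in sham 2.

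Of 11 brakes on the pathway with at least 10 CPM, 0 varied by 20% or more, against 14.2% of all genes at that level. The sum of these brakes with the lower genes was 1976, 1974 and 1908 CPM in sham 1, 2 and 3. The ubiquitin ligase Nedd4 stood at 734 ± 18.1 CPM, Fbxo40, a muscle ubiquitin ligase for Irs1, at 378 ± 36.9, the lipid phosphatase Inppl1 at 260.5 ± 4.63, and Grb14, an adaptor that inhibits the insulin receptor, at 192 ± 28.1 (SD, n = 3). Among those under 10 CPM, Socs1 gave 3, 6 and 31 counts and Socs3 43, 47 and 97, both highest in sham 3, and both are known as cytokine-induced inhibitors of receptor signalling. The adaptors, the PI3-kinase and AKT list and the brakes had median coefficients of variation of 7.03%, 7.43% and 7.81%. The median was 14.5% for the 2 other receptors and ligands with at least 10 CPM. It was 17.7% for the 6 other binding proteins and proteases at that level, of which 3 varied by 20% or more. The 9 receptors, substrates, ligands and binding proteins had 30.8%, and all 8864 genes at that level had 9.32%.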

How the data were processed

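RNA from 3 CKD and 3 sham hearts was measured. The authors deposited raw counts for each gene symbol with 1 column per heart. The mouse build mm9 and the tools HISAT2, HTSeq, Trimmomatic and DESeq are named per the submitters' processing notes, while their settings, the annotation, the strand setting and the treatment of shared reads are not given. Columns were matched to hearts by name.

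CPM was computed as count over column total times 1000000, with the mean and SD over 3 sham hearts. Python 3.11.15, pandas 2.3.3, scipy 1.17.1 and R 4.3.3 were used, with edgeR 4.0.16 for TMM factors and DESeq2 1.42.0 for size factors among the sham columns. Lengths are those of GENCODE models on GRCm38, another build than the deposited one, and 16856 of 17447 symbols (96.6%) had one. Promoters are from RefSeq on GRCm38.p6. The coefficient of variation step was tested on simulated data that held counting error and no other spread between hearts. That test therefore does not bear on the spread between real hearts. Sham totals were 10474487 to 12669724 counts, and 3 counts, taken as the limit for a gene at 0, correspond to 0.237 to 0.286 CPM, for counting error only.

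The genes and lists were chosen with earlier results of these data known. The 9 genes were named, then the 4 highest genes of each pathway list and any at 0, and the 5 nearest patterns for genes varying by 1.5 times or more, of which some are not reported here. Other list genes in the text were picked after their values were seen. The symbols Ins1, Insl5, Rln1 and Igfbp1 were not found in the table and were not analysed here. Neighbours in the order were compared with an exact two-sided paired permutation test. Alternatives were other scalings, lengths, a pseudocount of 0.5 CPM and leaving out each heart.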

Additional observations from a re-analysis of the deposited data

How the results depend on the processing

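Of 120 alternatives, 100 left the value within its spread or its count within 1.5 times, 19 moved it and 1 reversed a ratio. Of 36 other scalings of the 9 levels, 33 stayed within 1 SD. Column totals without the 10 highest rows, which raise every level, gave 258 CPM for Insr, 35.1 for Igf1r and 53.3 for Irs1. Of 9 places in the order by CPM, 1 was kept per kilobase of the longest transcript, 1 with merged exons, 1 with coding length (the last 2 chosen after the data had been seen, also for the ratios), and 4 to 6 without 1 heart. Per kilobase, the mean log2 ratio was -1.04 for Igf1 to Igf2 (-0.46 in CPM), 2.17 for Igfbp3 to Igf1 (0.63 in CPM) and 3.61 for Igfbp4 to Igf1 (2.73 in CPM), by the lengths alone. With merged exons it was -1.25 for Igf1 to Igf2 and 2.29, 3.89 and 4.26 for Igfbp3, Igfbp4 and Igfbp5 to Igf1 (3.54 in CPM for Igfbp5). With coding length it was 2.11 for Igfbp4, 2.82 for Igfbp5 and, reversed, -0.20 for Igfbp3, also by the lengths alone. The rho between CKD and sham columns had a median of -0.0552, and -0.120 over the 16885 rows with at least 10 counts. The cause was not tested. A mean of 3 hearts always stays within 1 SD when 1 is dropped, so such settings do not bear on stability. Without sham 3, Irs2 averaged 29.3 CPM and the log2 ratio of Irs1 to Irs2 was 0.63 in CPM, against 1.12 with all hearts. The number of genes varying by 20% or more was 3 to 5 when 1 heart was left out, against 6, a setting added after the data had been seen. Counts per 100 marker counts, also added then, are in another unit than CPM and stand with the report's values. No paired analysis was possible because CKD and sham hearts were not compared. The paired tests and ratios given pair genes within a heart. Depth limits the genes with few counts, such as Igfbp2 and Irs3, and not the 9 genes described.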
